A study of Canis lupus familiaris with 8 samples.

Results

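IL6, CXCL8 and JUNB are 3 genes of the acute inflammatory response, and their signals were described here in the mitral valve leaflets of 8 dogs. All probe sets that the platform annotation gives only 1 of these 3 symbols were taken, which came to 4 of the 23836 probe sets of the array that are not controls, and to 3 of 6540 named genes. IL6 (gene identifier 403985) has the probe set 1582450_at, CXCL8 (403850) has 1582462_at and 1582463_at, and JUNB (484927) has 1602953_at. The 3 genes had been selected on these same signals, which were high in affected dogs and in control 1, so their levels and group differences are given as a description, with no test.

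RNA came from the frozen anterior leaflet of the mitral valve, the inlet valve of the left heart, with 1 Affymetrix array per dog. The control group was 4 dogs, all beagle crosses. The affected group was 4 dogs with degenerative mitral valve disease, in which the leaflets thicken and no longer close fully: affected 1 was a Lhasa apso, affected 3 a Dachshund, and affected 2 and affected 4 were Miniature poodles. Breed and disease changed together and cannot be told apart, and neither age nor treatment of the dogs is given in the sources used here.

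The median signal was 133 in control 1 and lay between 124 and 192 over all arrays. The ratio of the 3' to the 5' control probe set of GAPDH was 1.11 in control 1 and from 1.00 to 1.46 over all dogs. That of actin varied more, from 0.284 in control 2 to 1.44 in affected 1, with 0.865 in control 1. The leaflet's own markers, 16 tested genes of fibroblasts and interstitial cells such as COL1A1 and VIM, had a mean log2 signal from 12.73 to 13.26 in 7 dogs and of 10.65 in control 2. The array of control 2 thus stood apart from the rest in these markers. Its 18 tested cardiac muscle genes averaged 13.52, the highest of all dogs, but affected 2 came near it at 12.87 and the others ran down to 10.03. Where leaving out control 2 moved one of the larger group differences or list medians by over 1.5 times, the value without it is also given. The number of arrays, 4 per group, limits the precision of every value.

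IL6 encodes interleukin 6, a secreted cytokine that signals through the shared receptor chain IL6ST and the transcription factor STAT3, and that drives the liver and other tissues to make acute phase proteins. CXCL8 encodes interleukin 8, a chemokine that draws neutrophils through the receptors CXCR1 and CXCR2. Both genes are switched on by NF-kB and AP-1 after signals such as interleukin 1 or bacterial products. JUNB encodes a subunit of AP-1 and is an immediate early gene, one whose transcript appears quickly after a stimulus and without new protein being made. In the mitral valve such signals can come from interstitial cells, endothelium or infiltrating leukocytes, and in whole tissue, fewer cells of a type and less RNA per cell cannot be told apart.

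IL6 was high in 4 of the 8 leaflets by a wide margin, 3 of them affected and 1 a control. Its signal, the array's linear brightness scale, was 572 in affected 1, 119.7 in affected 2, 728 in affected 3 and 8069 in affected 4. In the controls it was 943 in control 1, 9.97 in control 2, 54.4 in control 3 and 51.2 in control 4. Affected 4 was 11.1 times the next affected dog, and control 1 was above 3 of the 4 affected dogs, so the groups overlapped. All 4 affected dogs lay above controls 2, 3 and 4, although affected 2 did so by only 2.20 times the highest of them. Values below a floor of 34.2 are too close to background to be ordered and were set to it before log2 was taken, which touched control 2. On that log2 scale the 4 controls had a mean of 6.61 ± 2.20 (SD) for IL6, and the 4 affected dogs one of 9.64 ± 2.51 (SD). The difference was 3.03 ± 1.29 (log2, standard error from limma), or 8.18 times, and it rested on single dogs. It was 1.92 without affected 4 and 4.12 without control 1.

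CXCL8 was high in the same 4 dogs as IL6 and low in controls 2, 3 and 4. Its group difference was larger than that of IL6 in 1 probe set and smaller in the other. In probe set 1582463_at the signal was 5223 in affected 1, 314 in affected 2, 2025 in affected 3 and 7484 in affected 4. It was 921 in control 1, 6.55 in control 2, 36.4 in control 3 and 39.4 in control 4. Control 1 was 2.94 times affected 2 and below the other 3 affected dogs, while controls 2, 3 and 4 lay at or just above the floor. The log2 mean of the 4 controls was 6.36 ± 2.33 (SD) and that of the 4 affected dogs 11.12 ± 2.05 (SD), which differ by 4.77 ± 1.20 (SE). Without control 1 the difference was 5.93, and since 1 of the remaining controls was at the floor its true size may be larger.

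The second probe set of CXCL8, 1582462_at, was dimmer and differed from the first in 1 dog. Its signal was 1769 in affected 1, 40.8 in affected 2, 731 in affected 3 and 3031 in affected 4, against 478, 22.3, 71.8 and 56.1 in controls 1 to 4. Affected 2 lay below controls 3 and 4 here, but at 7.96 times the highest of controls 2, 3 and 4 in the first probe set. The order of the other dogs from affected 4 through affected 1 and affected 3 to control 1 was the same in both. The log2 difference was 2.81 ± 1.25 (SE), and it was 2.06 without affected 4 and 4.13 without affected 2. This probe set and that of IL6 were above the brightness needed for testing in exactly 4 dogs, control 1 and affected 1, 3 and 4, those in which they were high.

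JUNB was bright in every leaflet, and its spread was smaller. The signal was 3483 in affected 1, 2560.1 in affected 2, 10136 in affected 3 and 9381 in affected 4. In the controls it was 9258 in control 1, 1472.5 in control 2, 1748 in control 3 and 1734 in control 4. Control 1 stood with affected 3 and affected 4, and these 3 dogs formed a high set, while affected 1 and affected 2 lay between them and the other controls. The lowest affected dog was 1.46 times the highest of controls 2, 3 and 4. The log2 mean of JUNB was 11.31 ± 1.25 (SD) over the 4 controls and 12.40 ± 1.00 (SD) over the 4 affected dogs, which differ by 1.09 ± 0.64 (SE). The difference was 1.71 without control 1 and 0.79 without affected 3.

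**Figure D1:**
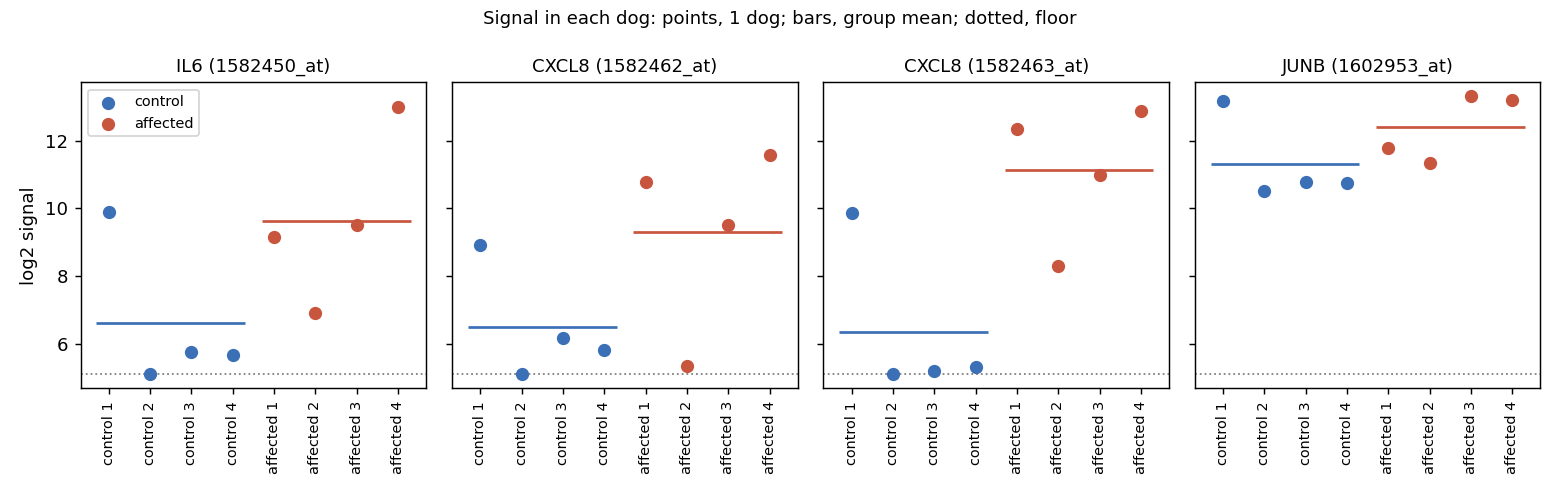
Log2 signal of the 4 probe sets of IL6, CXCL8 and JUNB in each dog, with 1 point per dog, a bar at the mean of each group of 4 and a dotted line at the floor of 5.10. Control 1 lies at 9.88 for IL6, 8.90 and 9.85 for CXCL8 and 13.18 for JUNB, far above controls 2, 3 and 4 and within the span of the affected dogs.

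None of the 4 probe sets separated the groups completely. Over all 14705 tested probe sets, all affected dogs lay above all controls in 345, which is 2.35%, and below all controls in 340. In limma, 0 probe sets (0%) in each direction reached the threshold of 0.05 on adjusted p, whose smallest value was 0.238. Those with p under 0.05 before adjustment numbered 591 (4.02%) on the higher and 560 (3.81%) on the lower side. Ordinary least squares without moderation of the variance also called 0 in each direction.

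The span from the lowest to the highest dog was far larger for IL6 and CXCL8 than for JUNB. It was 7.88 log2 units for IL6, a span larger than in 99.97% of tested probe sets, and 7.77 and 6.47 for the 2 probe sets of CXCL8. For JUNB it was 2.78, larger than in 88.9%, and the median of all tested probe sets was 1.46. Only 57 tested probe sets (0.388%) spanned more than 6 log2 units. Among the affected dogs alone, the highest was 67.4 times the lowest for IL6, 23.9 times for CXCL8 in 1582463_at and 3.96 times for JUNB. In all 4 probe sets affected 2, one of the Miniature poodles, was the lowest affected dog. The other Miniature poodle, affected 4, was the highest for IL6 and CXCL8.

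**Figure D2:**
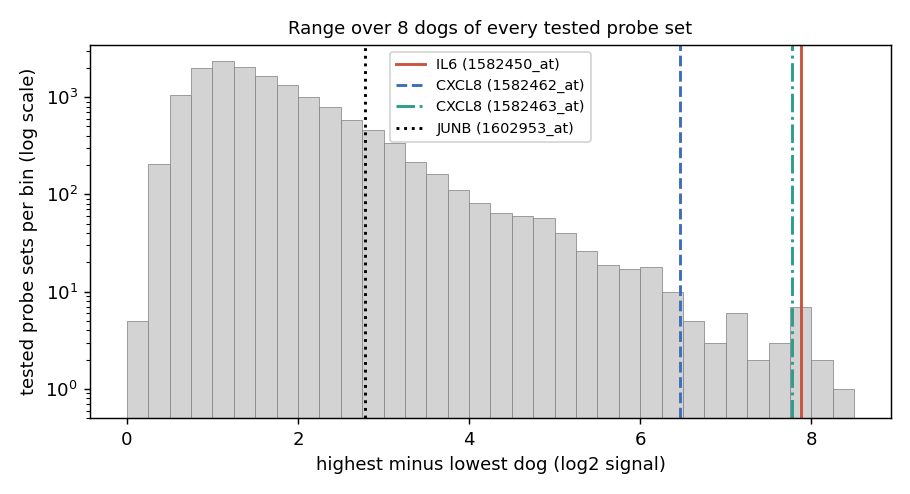
Range over the 8 dogs, the highest minus the lowest log2 signal, for the 14705 tested probe sets in bins of 0.25, with counts on a log scale and a vertical line for each probe set of the 3 genes. IL6 and CXCL8 lie in the thin right tail at 6.47 to 7.88, and JUNB at 2.78 lies within the bulk of the distribution.

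Control 1 was compared with the other controls and with the affected dogs gene by gene. Its signal was 17.4 times the highest other control for IL6, 23.4 and 6.66 times for the 2 probe sets of CXCL8, and 5.30 times for JUNB. On the log2 scale it lay 0.24 above the affected mean for IL6 and 0.78 above it for JUNB. For CXCL8 it lay 1.28 and 0.40 below the affected mean in 1582463_at and 1582462_at. Above the mean of controls 2, 3 and 4 it lay by 4.37 for IL6, 4.65 (1582463_at) and 3.21 (1582462_at) for CXCL8, and 2.49 for JUNB. The gaps to those controls are far wider than their own spread. Their log2 standard deviation (n = 3) was 0.36 for IL6, 0.10 (1582463_at) and 0.54 (1582462_at) for CXCL8, and 0.14 for JUNB. Part of that narrow spread comes from values at the floor for IL6 and CXCL8. JUNB, which is bright in every dog, was not touched by it.

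The count of probe sets that control 1 shared with the affected dogs lay within the counts of the other controls. Control 1 lay at or above the lowest affected dog, with the other 3 controls below every affected dog, for 238 tested probe sets (1.62%). They include probe sets in which control 1 lay above every affected dog, such as those of NR4A2 and IER2. The same count was 198 for control 2, 284 for control 3 and 106 for control 4. The 238 held 129 named genes, and by the gap between control 1 and the highest other control the widest were CXCL8 with 4.55 log2 units, IL6 with 4.12 and JUNB with 2.41, which were selected on such values. The next were the metal-binding MT2A at 2.24, the monocyte chemokine CCL2 at 2.20, the inflammatory caspase CASP4 at 2.05 and the T cell co-stimulator CD80 at 2.03. They were followed by the interleukin 1 receptor antagonist IL1RN at 1.92, MT1E at 1.89 and the class II gene DLA-DQA1 at 1.85.

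The genes with the most similar levels across dogs were then sought for each of the 3. Likeness was measured as the root mean square difference between 2 genes over the 8 dogs, after each log2 profile was centred on its own mean, and the smaller the value the more alike the patterns. The measure is not scaled to a gene's span, so genes of unlike span are far apart whatever their order of dogs. IL6, CXCL8 and JUNB were selected on these same signals, so their likeness to each other restates the selection and is no test. Among 5437 other genes, CXCL8 was the closest to IL6 at 0.99 log2 units (1582462_at) and IL6 the closest to CXCL8 at 1.21 (1582463_at), where the medians over all genes were 2.56 and 3.06. After CXCL8, the genes most like IL6 were CCL2 at 1.06, the lysozyme gene LYZ at 1.21, the prostaglandin synthase PTGS2 at 1.30 and MT2A at 1.31. For CXCL8 the next were LOC403585 at 1.33, for which the reference lists a serum amyloid A protein, the calcium-binding S100P at 1.36, CCL2 at 1.40 and the Fc receptor FCGR1A at 1.41.

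For JUNB the closest was IER2, another immediate early gene, at 0.45, followed by the cyclic AMP responsive factor CREM at 0.47, the apolipoprotein APOC1 at 0.48, DLA-DQA1 at 0.53 and the proteasome activator PSME2 at 0.54, against a median of 1.18. JUNB was 26th of 5437 genes by likeness to IL6 and 54th by likeness to CXCL8. By likeness to JUNB, whose span is smaller, IL6 was 5116th and CXCL8 5200th. These ranks are among genes selected together on these signals, so they are no test.

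**Figure D3:**
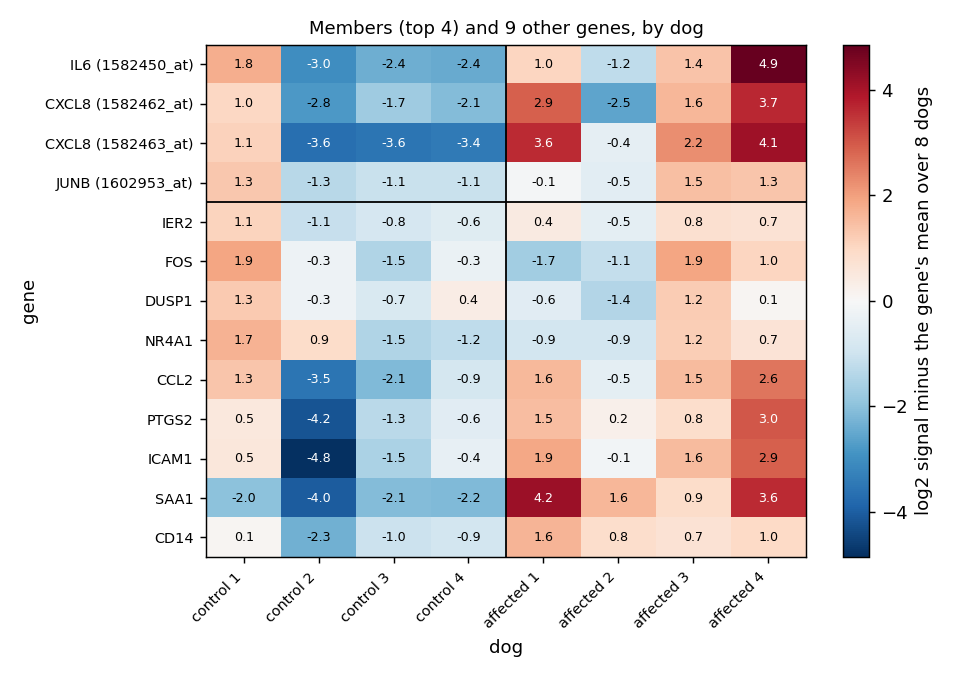
Log2 signal minus each gene's own mean over the 8 dogs, for the 4 probe sets of IL6, CXCL8 and JUNB (top) and 9 other genes, with controls left and affected dogs right of the black line. IL6, CXCL8, CCL2, PTGS2 and ICAM1 are above their own mean in control 1, affected 1, affected 3 and affected 4, FOS is highest in control 1, affected 3 and affected 4, and SAA1 is below its mean in control 1.

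The receptor and signalling genes of the IL6 pathway differed little between the groups. Of 16 ligands and receptors of the IL6 family, 4 were tested, IL6 among them, and 0 passed in either direction. IL6ST, the signalling chain, differed by -0.07 ± 0.39 (log2, SE, adjusted p = 0.973 in limma), LIFR, the receptor of a related cytokine, by 0.07 ± 0.32 and the cytokine CTF1 by 0.72 ± 0.32 (adjusted p = 0.628). IL6R and the inhibitor SOCS3 are not named in the annotation. Of 18 genes of the JAK and STAT3 signal and its brakes, 5 were tested and 0 passed. JAK1, a kinase bound to IL6ST, has 4 tested probe sets. The brightest lay between 12.59 and 12.84 in all 8 dogs, and the others differed between groups by 0.01, -0.95 and 0.45. The STAT inhibitor PIAS1 differed by -0.28 ± 0.26 and the phosphatase PTPN11 by 0.19 ± 0.31. STAT3 itself differed by 0.55 ± 0.30, and its log2 signal was 11.55 in control 1, 10.59 to 11.24 in the other controls, and 11.34, 11.31, 11.81 and 12.29 in affected 1 to 4, so control 1 lay above affected 1 and affected 2.

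Acute phase and other genes that IL6 can induce had mostly higher means in affected dogs, and control 1 was the highest control for 4 of them. Of 24 listed genes 11 were tested, 10 had a higher and 1 a lower mean in affected dogs, and 0 passed, with a median difference of 1.33 against -0.0056 over all 5438 genes tested. A higher mean was seen in 49.5% of all genes. The groups did not overlap for 5 of the 11, against 2.7% of all genes. Serum amyloid A genes are near copies of each other, so a probe set of one may read another. SAA1, a serum amyloid A protein, had log2 signals of 13.72, 11.15, 10.43 and 13.16 in affected 1 to 4. It was at 7.57 in control 1, next to 5.50, 7.43 and 7.38 in controls 2 to 4, and differed by 5.14 ± 0.73. The adjusted p was 0.238 in limma and 0.0187 with the replicate number as a block, although no label says that the numbers pair the dogs. Control 1 was thus with the other controls for SAA1 and with the affected dogs for IL6. SERPINA1, a protease inhibitor, and ITIH3, which binds hyaluronan, differed by 3.18 ± 0.74 and 1.40 ± 0.32, and control 1 lay below all affected dogs for both. Over the 11 genes control 1 differed from controls 3 and 4 by a median of -0.24.

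CXC chemokines and receptors other than CXCL8 had only 3 tested members of 23 listed. CXCL16, which binds the receptor CXCR6, differed by 1.81 ± 1.02, the interferon-induced CXCL10 by 0.92 ± 0.75 and the CXCL8 receptor CXCR2 by 0.35 ± 0.38, and 0 passed. Without control 2, which was at the floor for it, CXCL16 differed by 0.61. CXCL10 was at 8.73 in control 1, above the other controls at 7.11 to 7.48, and at 11.00 in affected 4. CXCR2 lay between 6.92 and 8.33 in all dogs, with control 1 at 7.31. Of 34 other chemokines and their receptors 7 were tested and 0 passed, with 6 higher and a median difference of 1.13, which was 0.47 without control 2. CCL2, which attracts monocytes, was at 13.28 in control 1, at 8.41 to 11.08 in the other controls and at 11.47 to 14.54 in affected dogs. It differed by 2.61 ± 0.95 (adjusted p = 0.573). CCL23, a chemokine for monocytes, differed by 2.03 ± 0.97, or 0.89 without control 2, and CCL5, which attracts T cells, by 1.13 ± 0.40.

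AP-1 subunits other than JUNB differed little between groups, but FOS was high in the same 3 dogs as JUNB. Of 21 listed subunits and relatives 4 were tested, JUNB among them, and 0 passed. JUN, JUND, FOSB, FOSL1, FOSL2 and ATF3 are not named in the annotation. FOS, the classic partner of the JUN proteins, had log2 signals of 13.33 in control 1, 13.32 in affected 3 and 12.46 in affected 4, and from 9.74 to 11.16 in the other 5 dogs. Its group difference was 0.06 ± 0.87 (adjusted p = 0.987), and both groups held high and low dogs. Affected 1, with the second highest CXCL8 of all dogs, had the lowest FOS. ATF4, a stress-induced factor, differed by 0.33 ± 0.24 and ATF2 by -0.34 ± 0.29.

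Most other immediate early genes had their highest control value in control 1. Of 48 listed genes 15 were tested, and control 1 was the highest of the 4 controls in 12, or 80%, against 23.1% of all genes tested. Control 1 was above the mean of the other controls by a median of 1.13 log2 units, and above controls 3 and 4 alone by 1.23, against 0.025 and 0.014 over all genes. NR4A1, a nuclear receptor induced within minutes by many stimuli, was at 12.20 in control 1, with the other controls at 9.04 to 11.39 and affected dogs at 9.58 to 11.68. Its relative NR4A2 was at 11.26 in control 1, above every other dog. DUSP1, a phosphatase that turns off MAP kinases, was at 13.25 in control 1 and 13.21 in affected 3, and at most 12.33 in the others.

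Between the groups, 13 of the same 15 genes had a higher and 2 a lower mean in affected dogs, where 49.5% of all genes had a higher one. Their median difference was 0.47, against -0.0056 over all genes tested, and 0 were past the threshold. PTGS2, which makes prostaglandins, was the only one with an unadjusted p under 0.05, at 2.79 ± 0.91 (limma adjusted p = 0.539), or 1.86 without control 2. CCN2, a matrix protein of the CCN family, differed by 0.57 ± 0.30, PPP1R15A, which restarts translation after stress, by 0.50 ± 0.31, IER2 by 0.72 ± 0.47 (0.47 without control 2) and DUSP1 by -0.33 ± 0.58. After the values of JUNB were seen, the genes whose 3 highest dogs were control 1, affected 3 and affected 4 were counted. Over all genes tested the share was 4.03%. They were JUNB, which set the pattern, and FOS of the 4 tested AP-1 genes. IER2, SGK1, CCN1 and MCL1 were found among the 15 other immediate early genes, and MAPK14 and MAP2K1 among the 8 MAP kinases. Single genes were IL6 of 4 in its family, STAT3 of 5, the NF-kB regulator BIRC2 of 4 and the selectin SELP of 13 inflammatory targets. IL6 was itself selected on these signals, so its place here is no test. The 20 tested macrophage markers held 0, as did the acute phase (11), cardiac muscle (18) and heat shock (18) lists. At a share of 4.03%, a count of 0 is not unusual in lists of this size. Of the 25 MAP kinases and kinases above them that feed AP-1, 8 were tested and 0 passed, with a median difference of 0.08. MAP2K6, which activates p38 kinases, differed by -0.60 ± 0.30, MAP3K5 by 0.44 ± 0.62 and the p38 kinase MAPK14 by 0.17 ± 0.34.

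Of the classic inducers upstream, TNF, IL1A and every IL1B probe set reached the brightness needed for testing in fewer than 4 dogs. TNF had a signal from 1.58 to 8.09 over all 8 dogs, below the floor in each, and was not tested. IL1B has 7 probe sets and none was bright enough in 4 or more dogs to be tested. The brightest of them, 1583021_s_at, had 282 in affected 1 and 414 in affected 4 and at most 35.9 in the other dogs, with control 1 at 30.4, which is below the floor. Control 1 therefore had IL6 at 943 with no IL1B probe set above 30.4. IL1A was at 112 in control 1, 151 in affected 1 and 231 in affected 4, and from 48.3 to 81.4 in the others.

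Of 33 genes of the interleukin 1, TNF and Toll-like receptor pathway, 10 were tested, 9 were higher in affected dogs, 0 passed and the median difference was 0.73, or 0.45 without control 2. IL1R2, a decoy receptor for interleukin 1, differed by 1.93 ± 0.82. IL1RN, which blocks the interleukin 1 receptor, was at 9.83 in control 1, 6.49 to 7.90 in the other controls and 7.97 to 10.26 in affected dogs. TLR4, the receptor for bacterial lipopolysaccharide, was at 9.86 in control 1 and 9.40 to 9.82 in affected dogs, against 7.15 to 8.76 in the other controls. Without control 2 the group difference went from 1.10 to 0.65 for IL1RN and from 1.11 to 0.66 for TLR4. Among the NF-kB genes 4 of 26 were tested and 0 passed. NFKBIA, the inhibitor that NF-kB itself induces, differed by 0.84 ± 0.43, with 12.22 in control 1, 11.43 to 11.84 in the other controls and 13.15, 11.29, 12.53 and 13.45 in affected 1 to 4. Affected 2 was again the lowest affected dog. NFKBIZ, a nuclear relative of it needed for IL6 induction, differed by 0.38 ± 0.55 (-0.0078 without control 2), and TAB2, an adaptor above NF-kB, by -0.14 ± 0.23.

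Genes that are induced along with IL6 and CXCL8 by inflammatory signals were higher in affected dogs in 10 of 13 tested members of 31 listed, with a median of 1.44 and 0 past the threshold. ICAM1, an adhesion molecule for leukocytes, was at 10.48 in control 1, at the floor, 8.42 and 9.55 in controls 2 to 4, and at 9.81 to 12.82 in affected dogs. It differed by 3.10 ± 1.04, or 2.00 without control 2. The adhesion molecule VCAM1 differed by 1.63 ± 0.47, and CD40, a receptor of antigen-presenting cells, by 1.25 ± 0.35 with no overlap. SELE, the selectin of activated endothelium, was at 13.33 in affected 4 and from 5.68 to 10.49 in the other dogs, and differed by 2.51 ± 1.01. Without control 2 the median of this list was 1.04 and that of the acute phase list 1.06.

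**Figure D4:**
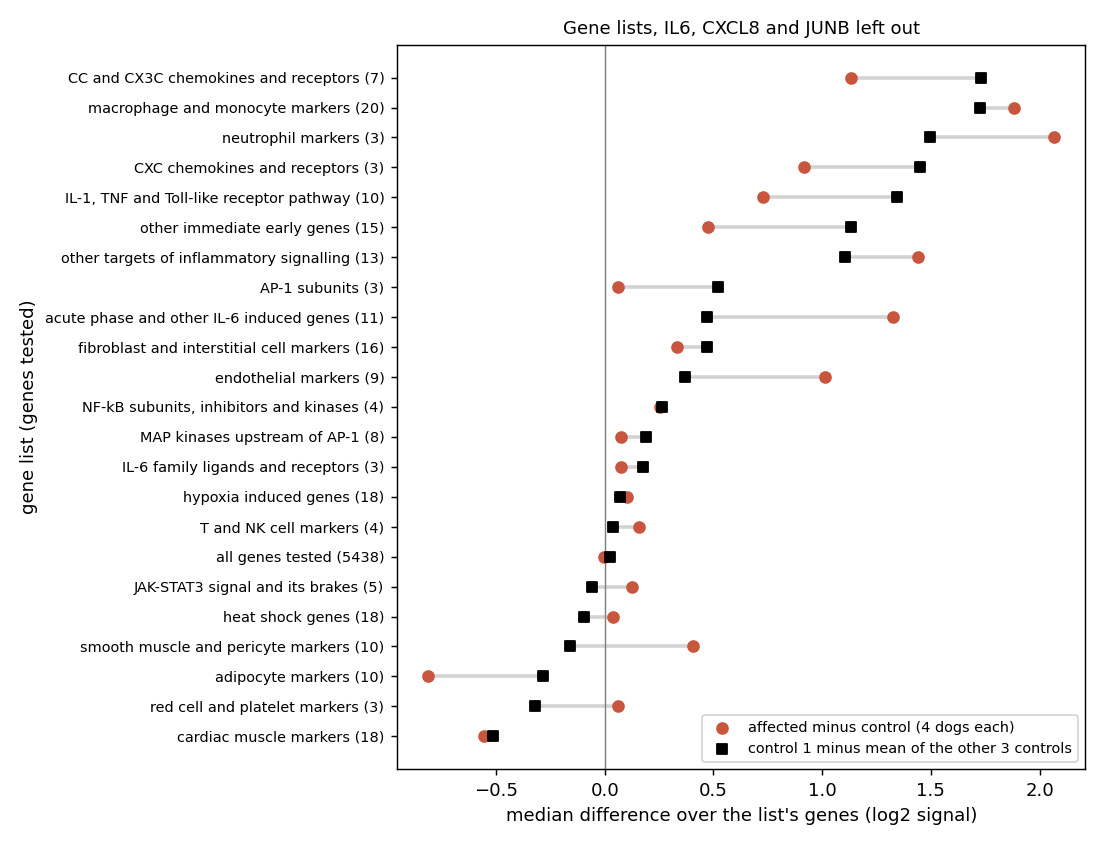
Median log2 difference over the tested genes of each list, with IL6, CXCL8 and JUNB left out, for affected minus control dogs (circles) and for control 1 minus the mean of the other 3 controls (squares). Immediate early genes lie at 0.47 and 1.13, acute phase genes at 1.33 and 0.47, and macrophage and monocyte markers at 1.88 and 1.73. Against controls 3 and 4 alone, the control 1 values of these lists are 1.23, -0.24 and 1.06, in that order.

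Markers of other cell types were counted in the same way. Of 26 macrophage and monocyte markers 20 were tested, and all 20 had a higher mean in affected dogs, with a median of 1.88 (1.16 without control 2) and 0 past the threshold. Their mean log2 signal was 9.50 in control 1, 6.60 to 8.75 in the other controls and 9.71 to 10.81 in affected dogs, and control 1 was the highest control in 18 of the 20. Their median in control 1 was 1.73 above the other controls and 1.06 above controls 3 and 4. The monocyte receptor CD14 was at 11.06 in control 1, 8.64 to 10.10 in the other controls and 11.69 to 12.62 in affected dogs, and differed by 2.09 ± 0.45 (adjusted p = 0.328). FCER1G, a signalling chain of Fc receptors, was at 6.42 in control 1, at the floor in the other 3 controls and at 7.35 to 8.77 in affected dogs, and differed by 2.91 ± 0.44 (adjusted p = 0.238), a size that the floor limits. The part of these cells in the signals of IL6, CXCL8 and JUNB was not tested.

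Markers of neutrophils, the cells that CXCL8 attracts, were mostly out of reach. Only 3 of 28 listed genes were tested, CXCR2, BPI and CYBB, and CYBB, a subunit of the phagocyte oxidase, is also made by macrophages. Their mean log2 signal ran from 7.31 to 9.60 in controls, highest in control 1, and from 10.19 to 10.60 in affected dogs. CXCR2 alone overlapped between groups, at 6.94 to 7.96 in controls and 6.92 to 8.33 in affected dogs, and CYBB did not overlap. BPI, which kills bacteria, differed by 2.50 ± 0.86 with no overlap between groups, or by 1.47 without control 2. The neutrophil elastase gene ELANE lay between 9.30 and 135 and was too dim to test, with control 1 at 49.1. The part of neutrophils in the signal of CXCL8 was not tested. Of 4 tested T and NK cell markers 2 were higher and 2 lower in affected dogs. Of 10 adipocyte markers 9 had a lower mean in affected dogs, 3 of them without overlap, with a median of -0.81. Of all 5438 genes tested, 2746 had a lower mean and 129 were lower without overlap. Of 18 cardiac muscle markers 17 had a lower mean, with a median of -0.55 that was -0.093 without control 2, and 0 of these lists passed. Of 9 tested endothelial markers all had a higher mean in affected dogs and 0 passed, with a median of 1.01, and control 1 was the highest control in 3. Of 18 tested heat shock genes, general stress markers, control 1 was the highest control in 2, and their median group difference was 0.04.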

How the data were processed

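Per the submitters' processing notes the authors used MAS5, and the deposited values are its signal, an intensity that is not logged. No version or detection call was used here. MAS5 merges perfect match and mismatch probes, so dim values are imprecise. All 8 arrays had a trimmed mean of 500.1, leaving out 2% at each end.

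Of 23913 rows, 77 are array controls. By the platform annotation 10549 rows have 1 symbol, 138 have several and 13226 none. The gene identifiers of 2 of the 3 genes were in the RefSeq table of the assembly UU_Cfam_GSD_1.0. That of JUNB was found there by symbol alone. No genome build is named, so no coordinates are given.

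Arrays were brought to 1 trimmed mean, the 20th percentile of all signals (34.2) served as a floor, and values were then logged to base 2. Testing was limited to the 14705 probe sets above the array's own 40th percentile on 4 or more of 8 arrays. Groups were compared with limma 3.58.1 in R 4.3.3 (lmFit, eBayes with trend, two-sided, Benjamini-Hochberg over all tested probe sets, threshold 0.05), a fit that was tested on simulated data. Gene lists use the brightest tested probe set of each gene and are described by counts and medians, with no set test. The members and lists were chosen with earlier results of these data known. Genes named were members, on a fixed list of 39, among the 3 smallest p of a list, among the 5 most like each member, or among the 10 with the widest gap of control 1. Other genes were named after their values were seen: IL1A, CCN1, SGK1, MCL1, NR4A1, NR4A2, COL1A1, MAP2K1, BIRC2, SELP, ELANE and those named only as absent. The promoter search that had been planned was not run.

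Alternatives were quantile and median normalization, values as deposited, other filters and floors, a pseudocount of 16, other variance models, weights for arrays, a block for the replicate number, and leaving out each dog. The gap of control 1 under these settings, and against controls 3 and 4 alone, and named genes without control 2, were added after seeing the data. The labels call the samples biological replicates.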

Additional observations from a re-analysis of the deposited data

Results flagged for a closer look

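Each group of 4 dogs was searched for a dog whose gap to its nearest neighbour took up more of the group's range than Dixon's critical value at the 95% level. Over 94 groups of values, chance alone flags about 1 in 20. IL6, CXCL8 and JUNB were selected on the height of control 1, so for them the gap restates the selection and is no test. Control 1 was such a dog for IL6, with a log2 signal of 9.88 against 5.10 to 5.76 in the other controls. It was also for CXCL8 in 1582463_at, with 9.85 against 5.10 to 5.30, and for JUNB, with 13.18 against 10.52 to 10.77. In the second probe set of CXCL8 control 1 did not pass this limit.

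Control 2 was low for SAA1 at 5.50, for SELE at 5.68 and for the mean of acute phase and other IL6 induced genes at 7.49, where the other controls lay between 8.84 and 8.99. Affected 3 was low for CXCR2 at 6.92 and for the mean of 4 T and NK cell markers at 7.24, where the other affected dogs lay between 7.84 and 7.91.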

How the results depend on the processing

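The group differences of IL6, CXCL8 and JUNB kept their direction in the 18 alternatives run for each of their 4 probe sets, and the gap of control 1 to the other controls in the 11 run for each. Over processing settings the differences ran from 2.19 to 3.48 for IL6, from 3.68 to 5.36 (1582463_at) and from 2.42 to 2.97 (1582462_at) for CXCL8, lowest when the floor was raised to the 40th percentile and highest without one, and from 1.02 to 1.09 for JUNB. Leaving out 1 dog gave 1.92 to 4.12 for IL6, 4.18 to 5.93 and 2.06 to 4.13 for CXCL8 and 0.79 to 1.71 for JUNB. The gap of control 1 for IL6 ran from 3.24 to 4.96 between the same settings. Values near the floor, where signal is not far above background, limit the size of these differences.

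Probe sets past the threshold numbered 0 in each direction, and 591 higher and 560 lower at an unadjusted p under 0.05. With the replicate number as a block 4 were higher, SAA1 and S100P among them, with none lower. The deviations of same-numbered dogs correlated at 0.41 for replicate 2 and from -0.12 to 0.022 for the others. No label says that the numbers pair the dogs. Leaving out 1 dog gave 0 to 1 higher, the 1 without control 1 (a probe set with no symbol), and 0 lower. Probe sets with no overlap numbered 446 to 1059 higher, the latter without affected 3, and 440 to 846 lower. Those with control 1 at or above the lowest affected dog, and the other controls below every affected dog, numbered 255 to 549. They numbered 403, 549 and 483 without controls 2, 3 and 4. Of 70 other named genes, 62 kept their direction without control 2, a setting added after seeing the data. It turned for LIFR (-0.094), FOS (-0.016), MAPK14 (-0.070), NFKBIZ (-0.0078), LCK (-0.044), NKG7 (0.089), ITGA2B (-0.13) and GP1BA (-0.0033). Most of the counts grow because fewer dogs need to be separated.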

Other observations

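Metallothioneins, small proteins that bind zinc and copper and are induced by interleukin 6, metals and glucocorticoids, are noted here for 2 genes picked after their values were seen. Control 1 lay above affected 2 alone for MT2A and above affected 2 and affected 4 for MT1E. MT2A was at 12.88 in control 1, 7.70 to 10.64 in the other controls and 11.46 to 13.50 in affected dogs in the probe set most like IL6. The group difference of MT2A was 2.74 in that probe set, and 1.78 (1.11 without control 2) and 0.13 in its other probe sets. MT1E was at 12.06 in control 1, 8.58 to 10.17 in the other controls and 10.66 to 12.35 in affected dogs. The hypoxia list that holds them had 18 tested genes of 28, a median group difference of 0.10 and control 1 highest of the controls in 7.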
